A study of Sorghum bicolor with 12 samples.

Results

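The comparison described here set the middle stem internode of sweet sorghum under the condition labelled Ds1 against the same internode at booting. Sweet sorghum (Sorghum bicolor) is a grass grown for the sugar-rich juice of its stem, and booting is the stage at which the panicle is still enclosed in the flag-leaf sheath. The groups were chosen by their labels: the booting column and the Ds1 column of the water-limiting part of the deposited sheet, which stand for 4 of the 12 libraries of the series. Both groups came from the hybrid CSH22SS, raised in an open field, both are labelled as booting, and each had 2 libraries. The heading over the columns ties Ds1 to water limitation. The labels do not say what Ds abbreviates, how severe or how long the treatment was, or whether the booting plants were sampled at the same date or hour. Nothing says whether the 2 libraries of a group came from separate plants.

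When water becomes short, plants of many species make abscisic acid, a hormone that closes stomata and switches on stress genes. Among the products of such genes are hydrophilic proteins of drying tissue, enzymes of protective solutes and protein chaperones, while genes of cell growth and wall building are commonly turned down. In a sweet sorghum stem the internode also stores sucrose and carries the vascular strands between root and panicle, so a sample of it holds storage parenchyma, xylem, phloem and epidermis together. In such bulk tissue, fewer cells of a type and less RNA per cell cannot be told apart. The deposited sheet names genes only by Sobic identifiers, and 0 of the 32976 identifiers in this part matched the RefSeq gene table of assembly NCBIv3. Genes are therefore given by identifier with no function, and the tissue label could not be checked against marker genes.

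The values are FPKM, fragments scaled by transcript length and by library size, with 1 value per group into which the authors had combined both libraries. There is no spread between replicates, so no difference below has an error or a test, and each is described by its size alone. The read depth is unknown. The water-limiting part lists 34718 loci, of which 33391 name a gene and 1327 name none. A locus was counted as higher or lower in Ds1 when the ratio on FPKM + 1 was at least 4, which is 2 on the log2 scale, provided that one of the groups read at least 10 FPKM. Among the named loci, 10320 reached that minimum.

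At least 4-fold apart were 1430 of the 10320 loci, 13.9% of them, of which 926 were higher in Ds1 (8.97%) and 504 lower (4.88%). Values in Ds1 were moderate at many of the higher loci, 469 of which read under 50 FPKM there. The median log2 difference over all 10320 loci was -0.04 in the values as deposited, the lower quartile -0.77 and the upper quartile 0.73, with 4989 loci above and 5331 below their booting value. The imbalance grew with the size of the ratio. At a ratio of at least 2 the higher and lower loci numbered 2020 and 1939, at 8 they numbered 525 and 177, and at 32 they numbered 139 and 17. When the totals of both columns were set equal after leaving out the 10 highest loci of either group, the split turned to 697 higher and 890 lower, and the median log2 difference to -0.54, so which direction is the more frequent depends on the scaling.

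**Figure D1:**
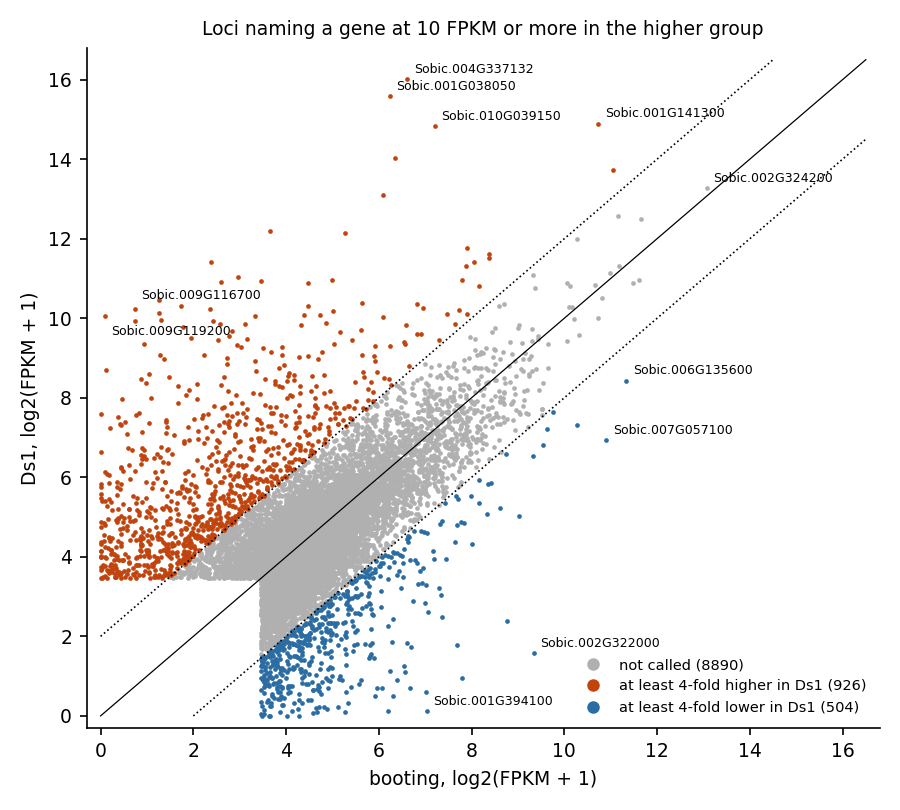
Each point is a locus naming a gene with at least 10 FPKM in the higher group, plotted by log2(FPKM + 1) in booting (horizontal) and in Ds1 (vertical), with the line of equality solid and the 4-fold lines dotted. The 926 higher loci lie above the upper dotted line, 702 of them under 10 FPKM in booting, and the 504 lower loci lie below the lower one.

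Of the 926 loci higher in Ds1, 702 read under 10 FPKM in booting and met the minimum through Ds1 alone, and 224 read at least 10 FPKM in booting. The median of the 926 was 3.82 FPKM in booting and 48.8 in Ds1. The lower loci, which by the rule read at least 10 FPKM in booting, had a median of 25.1 FPKM there and 2.53 in Ds1, so the booting medians of these sets are not compared. Loci at 10 FPKM or more in Ds1 and under 1 FPKM in booting numbered 201, and those at 10 FPKM or more in booting and under 1 FPKM in Ds1 numbered 111. The number of loci at 1 FPKM or more was nearly the same in both groups: 16838 named loci read at least 1 FPKM in booting and 16896 did so in Ds1, with 15230 in both. Of the loci at 10 FPKM or more in Ds1, 16 were listed at 0 in booting, with Ds1 values between 10.1 and 191 FPKM. Listed at 0 in Ds1 were 5 loci, with booting values between 10.2 and 18.5 FPKM.

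The shares of the summed FPKM differed between the groups. The 926 higher loci held 3.11% of all FPKM in booting and 42.1% in Ds1, and the 504 lower loci held 6.70% and 0.433%. Loci naming no gene took a further 1.75% in booting and 9.41% in Ds1. The tested loci that were not past the size rule went from 82.2% to 45.0% of the total. Because the column total itself was 477138 in booting and 885374 in Ds1, this smaller share does not correspond to lower FPKM values. Without the higher loci and those naming no gene, the columns summed to 453911 FPKM in booting and 429322 in Ds1. The higher loci were picked by direction and the 504 lower loci stayed in, which by itself lowers the Ds1 sum. These sums thus do not show whether the other loci were level. Ranked from the top, 1141 loci were needed to reach 50% of all FPKM in booting and 131 loci in Ds1.

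**Figure D2:**
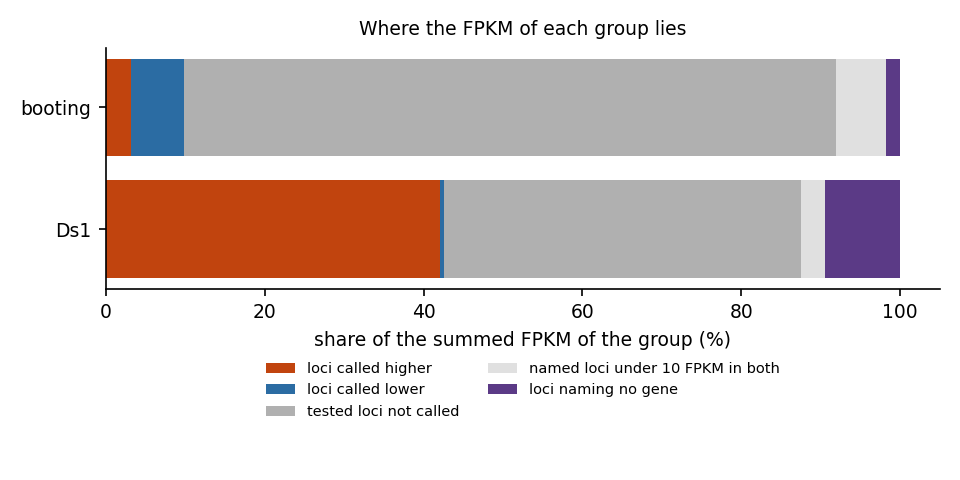
Horizontal bars give the share of the summed FPKM of each group (percent) held by loci called higher, called lower, tested but not called, named but under 10 FPKM in both groups, and naming no gene. In Ds1 the loci called higher hold 42.1% of the total, against 3.11% in booting.

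The most abundant genes of Ds1 were for the most part not those of booting. Of the 10 genes highest in Ds1, counted among genes with a single locus, 7 were at least 4-fold higher than in booting and 4 also belonged to the 10 highest of booting. They were picked by their Ds1 value, which also enters the difference, and over all 10320 tested loci 8.97% were higher. Sobic.004G337132, the highest named locus of Ds1 with 7.45% of all its FPKM, read 97.0 FPKM in booting and 65970 in Ds1, a ratio of 680, and ranked 776 among named loci in booting. Sobic.001G038050 read 74.5 FPKM in booting and 49021 in Ds1, a ratio of 658. Sobic.010G039150 read 147 and 29013 FPKM, a ratio of 197. Sobic.001G202800 read 81.0 and 16765 FPKM, a ratio of 207. These 4 genes rank between 447 and 1077 in booting and between 1 and 5 in Ds1.

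Sobic.001G141300 differs from those 4 in having been abundant in booting already. It read 1703 FPKM there, at rank 12, and 30465 in Ds1, at rank 3, which is a ratio of 17.9. Its log2 difference of 4.16 was 1.95 under quantile normalization, just under the 4-fold line. Sobic.001G191200 read 238 FPKM in booting and 3498 in Ds1, and Sobic.003G005800 read 330 and 3137. The ratios of these last genes were 14.7 and 9.50.

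Both conditions shared a small set of very abundant genes that were less than 4-fold apart in the values as deposited. Under quantile normalization most of them were past the 4-fold line, lower in Ds1. Sobic.002G324200, the highest named locus of booting, read 8654 FPKM there and 9865 in Ds1, where it ranked 7. Sobic.003G397600 read 3198 and 5795 FPKM, and Sobic.001G012500 read 2266 and 6112. Under quantile normalization all 3 turned to lower in Ds1, with log2 differences of -2.65, -2.82 and -1.03 in place of 0.19, 0.86 and 1.43, so no direction is given for them. Sobic.005G228700 read 2322 FPKM at booting against 2560 for Ds1, and Sobic.010G190600 read 1608 against 1827. Their log2 differences of 0.14 and 0.18 likewise turned negative, to -2.51 and -1.58 under quantile normalization and to -0.29 and -0.25 when the totals were set equal without the highest loci. Sobic.001G154100 read 3126 FPKM in booting and 1992 in Ds1, and Sobic.010G182600 read 1686 and 1026. Their log2 differences of -0.65 and -0.72 were -3.62 and -2.36 under quantile normalization, past the 4-fold line.

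Of the 10 genes highest in booting, 2 were at least 4-fold lower in Ds1, where 4.88% of all 10320 tested loci were lower. These 10 were picked by their booting value, which also enters the difference. Sobic.007G057100 read 1920 FPKM in booting and 122 in Ds1, a booting value 15.8 times that of Ds1, and moved from rank 10 to rank 787 among named loci. Sobic.006G135600 read 2588 and 345 FPKM, a ratio of 7.51 in favour of booting, and moved from rank 5 to rank 203.

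The largest increases on the log2(FPKM + 1) scale were at genes of unlike booting level, with 5 of the top 12 under 1 FPKM there, 5 between 1 and 10 FPKM and the other two at 74.5 and 97.0 FPKM. Sobic.009G119200 read 0.0730 FPKM in booting and 1060 in Ds1, a log2 difference of 9.95. Sobic.009G116700 read 0.664 and 1197 FPKM, a log2 difference of 9.49. These sizes and their order depend on the pseudocount: with 0.1 FPKM they were 12.58 and 10.61, and with 5 FPKM they were 7.71 and 7.73, below Sobic.004G337132 at 9.34 and Sobic.001G038050 at 9.27. The 12 largest increases lay on 6 chromosomes by their identifiers, had booting values between 0.0730 and 97.0 FPKM and Ds1 values between 412 and 65970, and spanned log2 differences from 8.07 to 9.95. The largest decrease was at Sobic.002G322000, which read 651 FPKM in booting and 2.004 in Ds1, a log2 difference of -7.76. Sobic.001G394100 read 130 and 0.0805 FPKM, a log2 difference of -6.93. With a pseudocount of 0.1 FPKM these decreases were -8.27 and -9.50, in the opposite order, and with 5 FPKM they were -6.55 and -4.74. The 12 largest decreases also lay on 6 chromosomes, with booting values between 59.5 and 651 FPKM, Ds1 values between 0.0805 and 4.24, and log2 differences from -7.76 to -5.42.

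Ds2 and Ds3, the other groups in the water-limiting part of the sheet, show how these genes read under further conditions of the series. Their columns summed to 682190 and 647608 FPKM against 885374 in Ds1. Comparisons with Ds1 below therefore hold for the values as deposited, not for shares of a column. Ds2 and Ds3 were compared with the same booting column, so their values are given side by side and no agreement between them is counted as support. Genes picked for a high or much increased Ds1 value tend by that choice to read lower in Ds2 and Ds3. Of the 10 genes highest in Ds1, 9 read below Ds1 in Ds2 and 9 in Ds3. For genes picked by a large decrease the choice works the other way. Sobic.009G119200 read 323 FPKM in Ds2 and 2530 in Ds3, below and above its Ds1 value of 1060. Sobic.009G116700 read 2284 and 2143 FPKM, both above its 1197 in Ds1. Sobic.004G337132 read 32599 and 24542 FPKM, both below Ds1, and Sobic.001G038050 read 26036 and 20677, also below it. Sobic.010G039150 read 20313 and 32381 FPKM, on either side of Ds1, and Sobic.001G202800 read 15586 and 14373, close to its 16765 in Ds1. Sobic.001G141300 was lower in each further group, with 14687 FPKM in Ds2 and 6479 in Ds3 against 30465 in Ds1. Sobic.007G057100 read 23.7 and 32.0 FPKM, below its 122 in Ds1, and Sobic.006G135600 read 397 and 774, above its 345. Sobic.002G322000 and Sobic.001G394100 stayed low, at 0.848 and 0.160 FPKM in Ds2 and at 1.02 and 0.568 in Ds3.

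**Figure D3:**
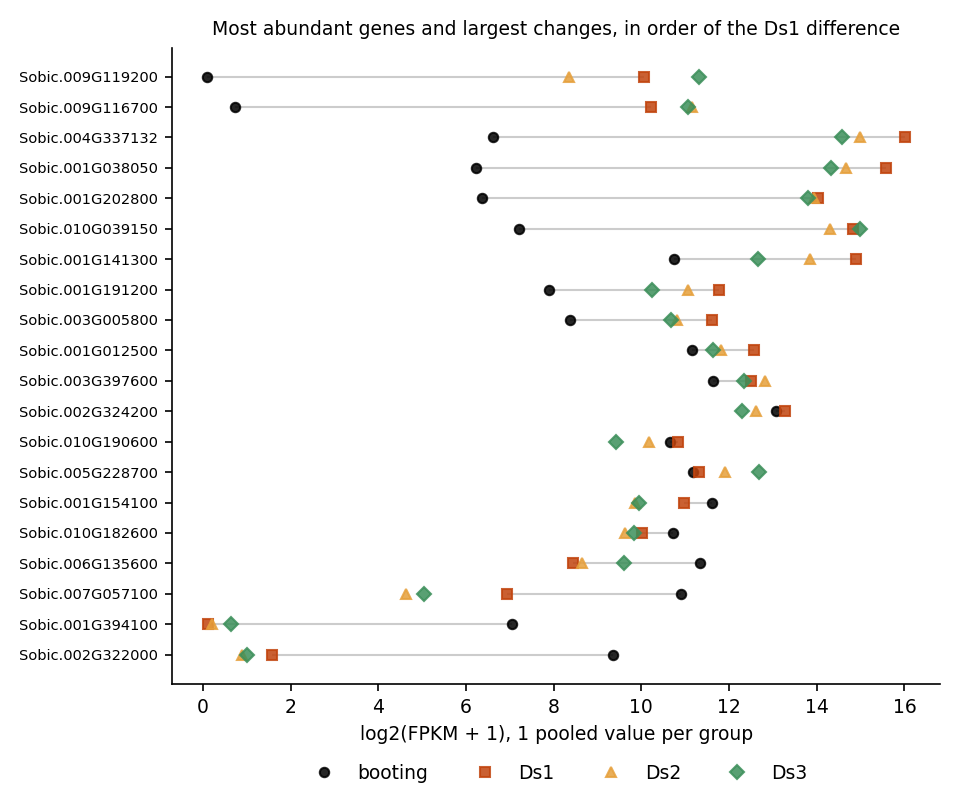
Each row is one of 20 genes, and the symbols give log2(FPKM + 1) in booting, Ds1, Ds2 and Ds3, 1 pooled value per group, with a grey line from booting to Ds1. Rows are ordered by the Ds1 difference, from Sobic.009G119200 at 9.95 to Sobic.002G322000 at -7.76.

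Loci that were very abundant in either group were more often higher than lower in Ds1. Of 65 loci at 1000 FPKM or more in the higher group, 61.5% were higher in Ds1 and 4.62% lower, against 5.48% and 5.43% of the 3647 loci whose higher group read 10 to 20 FPKM. A locus that is higher in Ds1 is placed in these bins by its own Ds1 value, so this describes which loci reached a high level and is no trend with abundance. Binned by booting value, the picture was the other way round. In each bin from 10 FPKM in booting upwards more loci were lower than higher: 198 and 109 of 3537 loci at 10 to 20 FPKM, 46 and 17 of 678 at 100 to 500 FPKM, and 9 and 2 of 64 at 500 FPKM or more. The booting value also enters the difference, so neither binning is independent of it. Quantile normalization, which gives both columns the same distribution of values, left 30.8% higher and 33.8% lower at 1000 FPKM or more in the higher group.

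**Figure D4:**
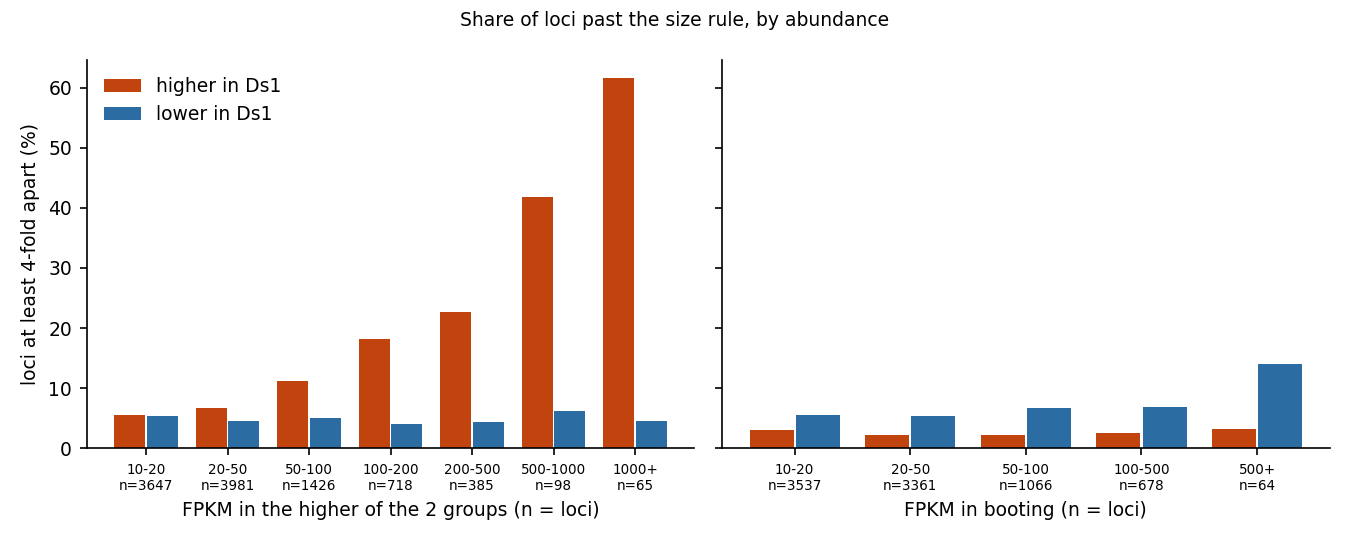
Bars give the percentage of loci at least 4-fold higher or lower in Ds1, with the number of loci under each bin, binned by the FPKM of the higher of the 2 groups (left) or by the FPKM in booting (right, 10 FPKM and above). The higher share reaches 61.5% in the top bin on the left, where loci are placed by their own increase, and stays between 2.16% and 3.13% on the right, where the lower share is between 5.33% and 14.1%.

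Among loci passing the 10 FPKM minimum, the higher ones were unevenly spread over kinds of identifier. Of the chromosomal genes with a single locus, 27614 carry a number that is a multiple of 100 and 4860 carry a number in between. Among these, 7.89% of 9520 tested loci with a multiple of 100 were higher in Ds1, against 17.4% of 553 loci with another number. Of 18 tested loci of the K series, whose identifiers name no chromosome, 10 were higher and 0 lower. Loci that share their gene name with another locus were higher in 69 of 229 cases, 30.1%, and their reads may be divided among copies in ways that cannot be checked here. Loci naming no gene were higher in 87 of 259 cases, 33.6%. The shares of lower loci differed less, at 4.76% for multiples of 100, 5.97% for other numbers, 7.86% for shared names and 7.34% for no gene.

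These shares depend on the 10 FPKM minimum, which 34.5% of single loci with a multiple of 100 reached but only 11.4% of those with another number. Over all single loci with no minimum, 3.42% of the multiples of 100 and 2.45% of the other numbers were at least 4-fold higher in Ds1, so the order of these kinds turned round. The remaining kinds stayed above both, at 12.2% for the K series, 11.1% for shared names and 10.1% for no gene. Among all chromosomal loci passing the minimum, those sharing a gene name included, the other numbers were ahead in each bin of the higher group's FPKM. At 10 to 20 FPKM 5.13% of multiples of 100 and 10.6% of other numbers were higher, and at 1000 FPKM or more 55.8% of 52 and 81.8% of 11. An increased locus is placed in these bins by its own Ds1 value, and all had passed the minimum. The bins therefore give no check on the minimum. In FPKM, single loci with a multiple of 100 went from 89.6% to 62.9% of the column, and those with another number from 4.34% to 19.9%. Of the 10 highest loci of Ds1, 3 name a gene with such an in-between number and together hold 16.3% of the column, 2 name no gene, 2 share a gene name and 3 name a gene with a multiple of 100. In booting, 7 of the 10 highest were of the last kind and 3 shared a gene name.

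**Figure D5:**
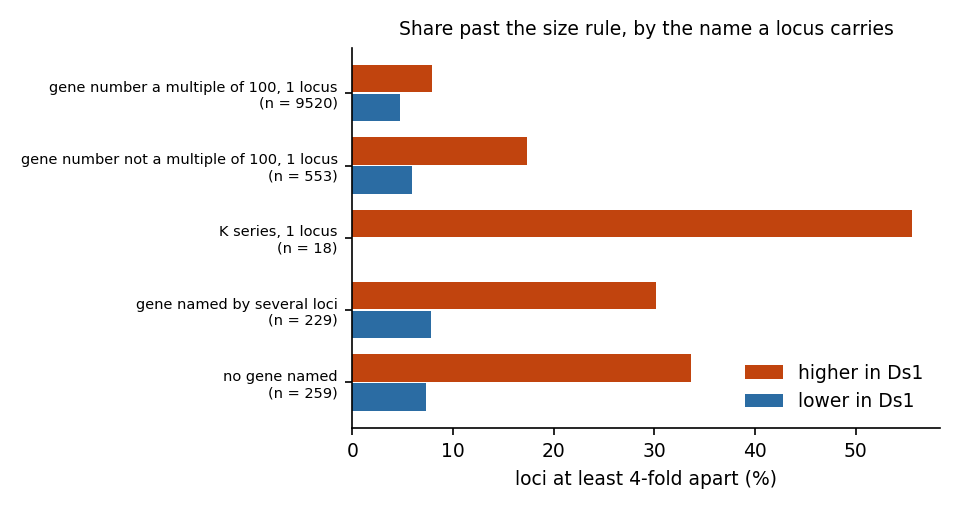
Bars give the percentage of loci at least 4-fold higher or lower in Ds1 for each kind of identifier, with n the number of loci at 10 FPKM or more. Among loci passing this minimum, single-locus genes numbered in multiples of 100 have the lowest share of higher loci, 7.89%, and the K series, with only 18 loci, the highest. With no minimum, 3.42% of the multiples of 100 and 2.45% of the other numbers were higher. The K series, shared names and no gene were then at 12.2%, 11.1% and 10.1%.

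By the chromosome number in the identifier, higher and lower loci were spread over the whole genome. The share of tested loci higher in Ds1 ranged from 5.56% of 486 on chromosome 8 to 9.81% of 673 on chromosome 7, and the share lower from 4.23% of 851 on chromosome 10 to 7.38% of 447 on chromosome 5. Among tested genes, higher loci were next to each other in identifier order more often than lower ones. Among tested single-locus genes, the next tested gene was also higher after 141 of 847 higher genes, 16.6%, where 8.41% of all such next genes were higher. After lower genes the next was also lower in 29 of 486 cases, 5.97%, where 4.83% of all next genes were lower. Of all 926 higher loci, 702 met the 10 FPKM minimum through Ds1 alone. A gene weak in booting thus enters this count only if it read higher in Ds1. The shares for higher genes are therefore partly made by the minimum. Most runs were short: among all single-locus genes in identifier order, 705 higher genes stood alone, 47 runs had 2 members and 7 had 3, while lower genes formed 12 runs of 2 and none longer.

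The longest runs, with 13 and 10 members, lie in a single stretch of chromosome 3 from Sobic.003G168350 to Sobic.003G173266, singled out after its values were seen. Its ends are the ends of these runs, so its count of higher loci follows largely from how it was bounded. Of 36 tested loci there, 27 were higher in Ds1 and 0 lower, with a median of 6.61 FPKM in booting and 140 in Ds1 for those 27. Most of the 27 thus reached the 10 FPKM minimum through Ds1 alone. Without the stretch, chromosome 3 had 8.19% of its tested loci higher. The next tested gene was then also higher after 14.2% of higher genes, where 8.19% of all next genes were higher. The same limit from the minimum applies.

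The booting libraries were also read in the developmental part of the sheet, and that second reading shows how far a value differed between the parts. How the processing of the parts differed is not stated. Over 8653 genes at 10 FPKM or more in either reading, the median ratio of the water-limiting to the developmental reading was 0.863, and the difference on the log2(FPKM + 1) scale had an SD of 0.32 across genes. Genes under 10 FPKM in both readings are outside this SD. In the water-limiting part, 702 of the 926 higher loci read under 10 FPKM in booting. Of 1235 called genes with both readings, 21 had booting values at least 2-fold apart once that median was removed, 12 among the 803 higher genes and 9 among the 432 lower ones. A gap of at least 4-fold, as large as the size rule, was found at 6 called genes. A gene among the 12 largest decreases read 102 FPKM in the water-limiting part and 661 in the developmental part. Such gaps are no replicate error, since both readings come from the same libraries.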

How the data were processed

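RNA of middle stem internodes was sequenced in 12 libraries, 2 for each of 6 groups; total RNA libraries were made with a stranded TruSeq kit, per the labels' protocols. The authors deposited FPKM values, 1 per group, in a sheet with a developmental and a water-limiting part, per the file headers; the unit is taken from the table's name. The booting column of the developmental part, classed as an other unit, is the authors' FPKM as well. Per the submitters' processing notes, the tools were Bowtie2 2.2.9, HISAT2 2.0.5, Cuffdiff and cutadapt 1.8.1, their roles and order not stated. The genome build, and whether counting used strand, are not given in the sources used here.

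Ds1 and booting were compared within the water-limiting part as differences of log2(FPKM + 1), on which changes of weakly expressed genes look smaller than they are. Loci naming a gene counted as higher or lower at a ratio of at least 4 with at least 10 FPKM in the higher group. The identifiers printed are the 2 largest increases and 2 largest decreases above 0 in both groups and the 10 highest genes of each group, among genes with 1 locus. A design for 1 value per library had foreseen limma; it could not be used on pooled values. The 53 gene lists defined by product names could not be filled, because no source used here annotates the identifiers. The members and lists were chosen with earlier results of these data known. Scripts (Python 3.11.15, numpy 2.4.6, pandas 2.3.3, matplotlib 3.10.9) were tested on simulated data. Alternatives were other pseudocounts, filters, ratios, scalings and sets of loci.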

Additional observations from a re-analysis of the deposited data

Results flagged for a closer look

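Loci naming no gene were outside the counts above, and their signal was larger in Ds1 than in booting. They held 9.41% of the Ds1 FPKM and 1.75% of the booting FPKM. The highest of them read 76.0 FPKM in booting and 27801 in Ds1, and it read 17337 in Ds2 and 9838 in Ds3. The next read 10.9 and 12932 FPKM in booting and Ds1. No function or position is given for these loci here.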

How the results depend on the processing

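No paired analysis was possible because the deposited columns hold 1 value for both libraries of a group, so neither a replicate block nor leaving out a library could be computed, and the gene lists stayed empty. With a pseudocount of 5 FPKM the loci past the size rule numbered 806, 597 higher and 209 lower, and at a ratio of 2 they numbered 3959, 2020 higher and 1939 lower; both follow from how the size is measured. With totals set equal without the 10 highest loci of either group, 697 were higher and 890 lower, and the median log2 difference was -0.54, since the remaining Ds1 values summed to 1.35 times those of booting. The counts of higher and lower loci stayed within 1.5 times those reported with a pseudocount of 0.1 FPKM (1004 and 613), no filter (1166 and 729), median of ratios scaling (953 and 484), quantile normalization (900 and 556), loci naming no gene included (1013 and 523), genes with 1 locus (857 and 486), a mean of at least 5 FPKM (948 and 530) and without the chromosome 3 stretch (899 and 504), the last chosen after seeing the data. None of the called genes among the 20 shown changed sign under the pseudocounts and scalings tried, and Sobic.001G141300 under quantile normalization was the 1 that was no longer 4-fold apart. Read depth is unknown, so no counting limit can be set on low values.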
